A study of Mus musculus with 30 samples.

Results

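Described here are 9 genes known as marks of naive and central memory CD8 T cells: Tcf7, Lef1, Foxo1, Klf2, Satb1, Ccr7, S1pr1, Il7r and Dapl1. They were taken by name and matched to the table through their Ensembl identifiers. All 9 were found among its 55573 genes, and all 9 passed the filter on low counts that left 11718 genes for testing. RNA was sequenced from 30 cultures of CD8 T cells of C57BL/6 mice 8 weeks old. The cells had been isolated as naive cells from spleen and lymph nodes and were kept for 3 days on plate-bound antibodies against CD3 and CD28, at 5 µg/ml each, which all groups share. The 6 groups of 5 libraries were KO with IL12 (10 ng/ml), WT with IL12, KO with TGFB1 (0.5 ng/ml), WT with TGFB1, KO without added cytokine and WT without added cytokine. KO stands for the libraries labelled as Furin knockout and WT for those labelled wild type, and each genotype had 4 females and 1 male. Furin is a protease that cleaves precursor proteins, the TGFB1 precursor among them. The sources used here do not give the allele, the deleted part of the gene or the cells in which it was deleted.

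A naive CD8 T cell circulates through lymph nodes and is kept in a resting state by a set of transcription factors. FOXO1 drives Klf2, Il7r, Ccr7 and Tcf7, and KLF2 in turn drives S1pr1. TCF1 (the product of Tcf7) and LEF1 are related DNA-binding proteins that maintain naive and memory identity, and SATB1 organises chromatin in T cells. CCR7 brings cells into lymph nodes and S1PR1 lets them leave. IL7R is the alpha chain of the receptor for the survival cytokine IL7, and Dapl1 is a transcript used as a marker of naive and memory CD8 T cells. Strong stimulation normally lowers these genes, and central memory cells express many of them again.

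The RefSeq promoter table (build GRCm38.p6) held 15 windows of 300 bases for 7 of the 9 genes. Ccr7 and S1pr1 had no entry. Each window was searched on both strands for 5 sets of letters, no match of one set overlapping a match of another in these 15 windows. The FOXO letters GTAAACA were found in 2 of the 15 windows, 1 of Tcf7 and that of Dapl1, and in 3.65% of all 32851 windows. The STAT letters TTCNNNGAA were found in 1, that of Il7r, against 8.30% of all windows. The TCF/LEF letters CTTTGA were found in 1 of the 15, a Lef1 start, against 16% of all windows. The KLF letters CCACCC were found in 8 of the 15 windows, of 4 genes, against 31.5% of all windows. Some windows of Lef1 and of Satb1 overlap and share a KLF match, so the same match is counted in more than 1 window. The SMAD letters GTCTAGAC were found in 0 of the 15 and in 0.213% of all windows. The windows with the FOXO or STAT letters, which were picked after the search because FOXO1 is the known driver of several of these genes and STAT factors act below the IL7 and IL12 receptors, read as follows 5′ to 3′, with the matched letters in capitals. A match describes the letters in the window only.
Tcf7, chr11:52282546-52282845, minus strand: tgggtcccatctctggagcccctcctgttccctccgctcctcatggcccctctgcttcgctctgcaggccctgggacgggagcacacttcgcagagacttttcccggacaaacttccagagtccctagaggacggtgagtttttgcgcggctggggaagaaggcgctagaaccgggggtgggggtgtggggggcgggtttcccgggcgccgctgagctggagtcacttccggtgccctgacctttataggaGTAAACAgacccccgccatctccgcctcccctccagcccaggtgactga
Dapl1, chr2:59484403-59484702, plus strand: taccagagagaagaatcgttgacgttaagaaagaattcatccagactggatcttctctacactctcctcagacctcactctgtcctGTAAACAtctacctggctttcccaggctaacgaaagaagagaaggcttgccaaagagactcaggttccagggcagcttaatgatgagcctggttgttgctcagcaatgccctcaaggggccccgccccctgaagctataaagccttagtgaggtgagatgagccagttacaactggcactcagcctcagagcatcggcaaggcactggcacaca
Il7r, chr15:9529827-9530126, minus strand: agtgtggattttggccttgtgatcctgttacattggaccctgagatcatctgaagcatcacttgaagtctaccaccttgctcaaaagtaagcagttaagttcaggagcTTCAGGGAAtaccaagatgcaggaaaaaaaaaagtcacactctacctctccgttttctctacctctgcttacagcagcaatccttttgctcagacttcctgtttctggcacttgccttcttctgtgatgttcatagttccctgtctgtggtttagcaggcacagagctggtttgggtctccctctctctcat

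Library totals ran from 7306151 to 15502443 counts, and the lowest count of any of the 9 genes in any library was 35, for S1pr1. Furin transcripts do not check the labels, since the deleted part is not stated and the ranges of KO and WT overlapped in every condition. CD8 T cell markers were high in every library, with a sum of 6 genes from 1690 to 4290 CPM, counts scaled to the library's total. Of the CD4 T cell markers, Cd4 reached at most 2.37 CPM and Zbtb7b ran from 9.81 to 25 CPM. Of the 6 B cell markers, 4 averaged below 1 CPM in each group, while Cd79b ran from 5.99 to 18.5 CPM and Ighm from 183 to 809 CPM. Among the NK markers, Klrc1 ran from 1.46 to 21 CPM with a median of 7.54 CPM. The medians were 0 CPM for Ncr1 and Klrb1c, 0.565 CPM for Tyrobp and 1.15 CPM for Fcer1g. Siglech, Hba-a1 and Pdgfra, which mark dendritic, red and stromal cells, were at 0 in all 30 libraries. Other genes of the same lists were present in all 30, with H2-Ab1 at 0.532 to 8.38 CPM, Itga2b at 0.19 to 2.16 CPM and Pecam1 at 7.46 to 81.1 CPM. In RNA from bulk cultures, fewer cells of a type and less RNA per cell cannot be told apart.

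Several libraries stood apart from their own group in nearly all of the 9 genes. With TGFB1, WT library 62 was the lowest of its group in 9 of 9 genes and KO library 73 was the highest of its group in 9 of 9. Without cytokine, WT library 71 was the highest in 8 of 9 and KO library 73 the highest in 8 of 9. The numbers are those of the sample titles. The median deviation of the 9 genes from the group mean was 0.72 (log2 CPM) in KO library 73 with TGFB1 and -0.61 in WT library 62 with TGFB1. WT library 71 without cytokine lay 0.43 above its group. In these libraries most of the 9 genes lay to 1 side of their group, and S1pr1 had the highest coefficient of variation in each of the 6 groups.

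**Figure D1:**
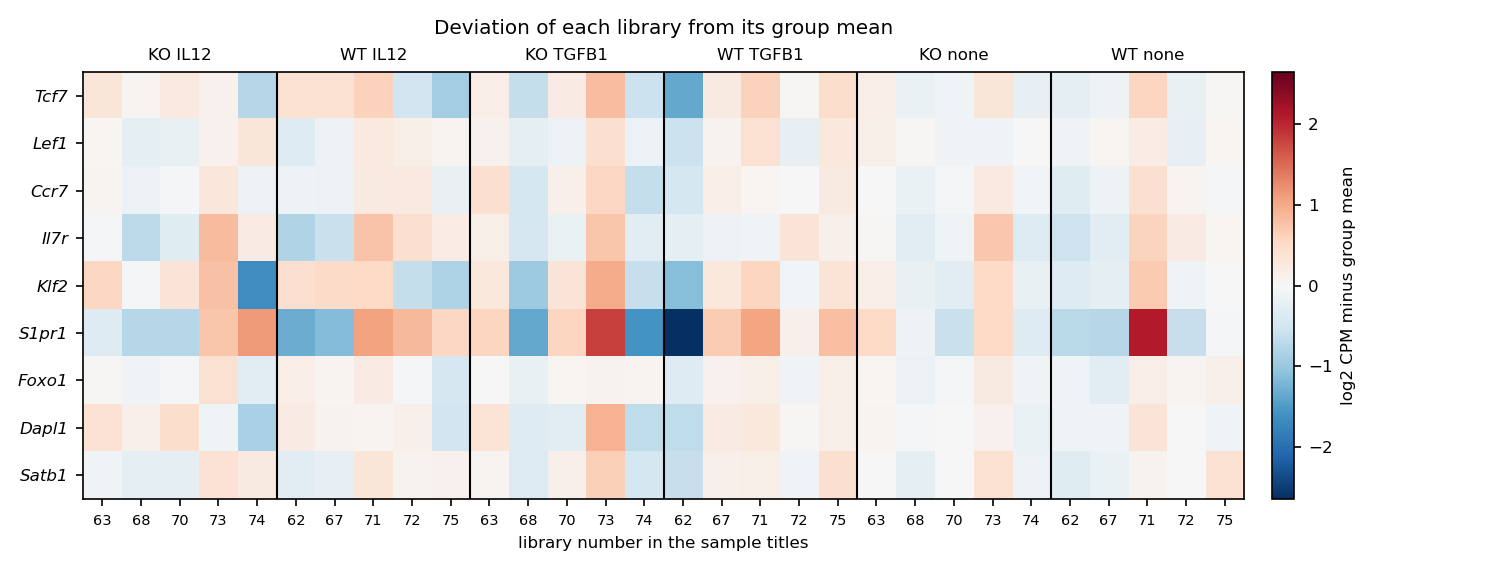
Deviation of each of the 9 genes (rows) from its group mean, as log2 CPM, in each of the 30 libraries (columns, numbered as in the sample titles). Red is above and blue below the group mean: KO library 73 with TGFB1 is above it in 9 of 9 genes, and WT library 62 with TGFB1 is above it in 0 of 9.

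Levels can be compared between genes only per kilobase of exon. On that scale Ccr7 and Tcf7 had the highest and next highest mean of the 9 in each of the 6 groups. The lowest mean was that of Satb1 in both groups with TGFB1 and that of S1pr1 in the other 4 groups. With TGFB1, mean Ccr7 was 302 CPM per kb in KO and 416 CPM per kb in WT, and mean Tcf7 was 167 in KO and 338 in WT. Satb1, which has 19.03 kb of exon, was at 4.96 CPM per kb in KO with TGFB1 and 10.9 in WT with TGFB1. All other levels below are CPM without division by length and are compared only within a gene.

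WT with TGFB1 had the highest mean of the 6 groups for 8 of the 9 genes, and Satb1 was highest in WT with IL12. The lowest mean was in KO with IL12 for Tcf7, Ccr7, Klf2 and Dapl1, in KO without cytokine for Il7r, S1pr1 and Foxo1, and in KO with TGFB1 for Lef1 and Satb1. Neighbours in the order of group means mostly overlapped in their ranges. The exceptions were Klf2, where KO without cytokine (54.1 to 96.3 CPM) lay above WT with IL12 (16.8 to 42.8 CPM), and Dapl1. For Dapl1, KO without cytokine (53.3 to 65.4 CPM) lay between WT without cytokine (74.5 to 102 CPM) and WT with IL12 (25.6 to 42.4 CPM) with no overlap on either side.

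**Figure D2:**
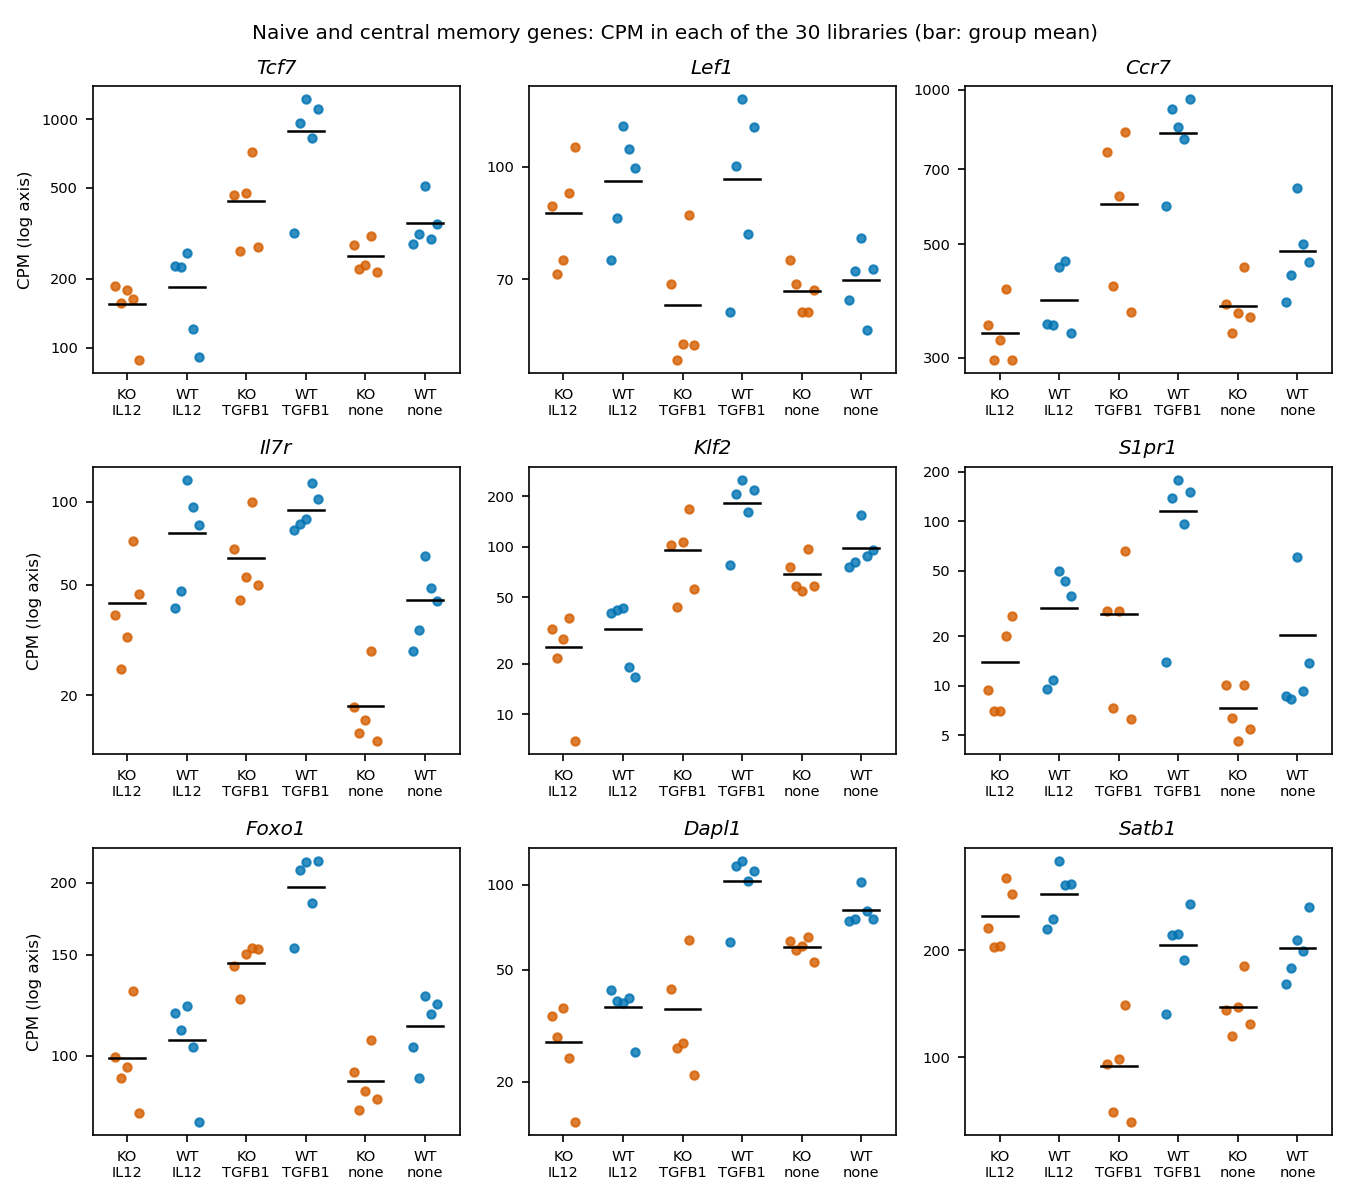
CPM of each gene (log axis) in each library, in the groups KO and WT with IL12, with TGFB1 and with no cytokine (none). Points are libraries, KO in orange and WT in blue, and bars are group means; for Tcf7 the mean is 439 CPM in KO with TGFB1 and 888 CPM in WT with TGFB1.

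With TGFB1 the naive and memory genes were lower in KO than in WT. Of the 9 genes, 8 were lower and 0 higher at an adjusted p below 0.05 (edgeR's quasi-likelihood test, Benjamini-Hochberg over 11718 genes), where 17.3% of all genes tested were lower and 18.3% higher. Il7r was the exception. The median of the 9 log2 fold changes was -0.94, against -0.01 over all genes tested. The median covers genes that vary together and is a description. The labels do not say that the libraries of a group came from separate animals, so the p-values measure the spread between these libraries.

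Dapl1 had 42.7, 26.4, 27.5, 63.7 and 21.1 CPM in KO libraries 63, 68, 70, 73 and 74 grown with TGFB1, against 62.95, 117, 122, 103.5 and 112 CPM in WT libraries 62, 67, 71, 72 and 75. Values of other genes are given in the same order of libraries. KO library 73 was just above WT library 62, and every other KO library was below every WT library. The log2 fold change was -1.51 ± 0.23 (SE), with an adjusted p of 0.000102.

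Satb1, the chromatin organiser, had 95.9, 70.4, 99.2, 140 and 65.8 CPM in KO with TGFB1, against 132, 222, 223, 188 and 270 CPM in WT with TGFB1. Again only KO library 73 and WT library 62 crossed. Its log2 fold change was -1.14 ± 0.19 (SE), with an edgeR adjusted p of 0.000216.

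Tcf7 had 466, 266, 474.5, 716 and 275 CPM in KO with TGFB1, against 317.5, 958, 1224, 828 and 1110 CPM in WT with TGFB1. WT library 62 lay within the KO range, and the other 4 WT libraries were above every KO library. Tcf7 fell by 1.01 ± 0.30 on the log2 scale (SE, edgeR adjusted p 0.0102).

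S1pr1, the exit receptor, had 28.3, 7.34, 28.4, 66.1 and 6.26 CPM in KO with TGFB1, against 13.9, 138, 178, 96.0 and 151 CPM in WT with TGFB1. Its spread was the widest of the 9 genes in that condition, and WT library 62 was below 3 of the 5 KO libraries. S1pr1 had the largest fold change of the 9, at -2.08 ± 0.62 on the log2 scale (SE, edgeR adjusted p 0.0107), and -2.75 without KO library 73.

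Foxo1 averaged 145 ± 11.8 CPM in KO with TGFB1 and 197 ± 27.6 CPM in WT with TGFB1 (SD, n = 5 each), a log2 fold change of -0.44 ± 0.12 (SE, edgeR adjusted p 0.00749). Lef1 had a mean of 64.6 ± 13.2 CPM in KO and 96.3 ± 24.6 CPM in WT (SD), with -0.58 ± 0.15 on the log2 scale (SE, edgeR adjusted p 0.00435). Klf2 had a mean of 95.3 ± 49.1 CPM in KO and 183 ± 66.7 CPM in WT (SD), with -0.94 ± 0.35 (SE, edgeR adjusted p 0.0374). These 3 transcription factor genes fell, Klf2 with the widest spread. The lymph node homing receptor gene Ccr7 had a mean of 597 ± 203 CPM in KO and 824 ± 143 CPM in WT (SD), with -0.46 ± 0.17 (SE, edgeR adjusted p 0.0375). Il7r had a mean of 62.8 ± 22.1 CPM in KO and 93.4 ± 15.6 CPM in WT (SD), with -0.57 ± 0.28 (SE, edgeR adjusted p 0.106).

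The KO and WT ranges overlapped for all 9 genes with TGFB1, where 7.64% of all genes tested had ranges that did not overlap. The call of Klf2 was lost without KO library 68 or 74 or WT library 67, 71 or 75, and that of Ccr7 without any of these or KO library 70. In a fit on the 2 groups alone 5 of the 9 genes were called, with adjusted p 0.0538 for Tcf7, 0.119 for Ccr7 and 0.0747 for Klf2. Over all genes that fit called 2307, against 4166 in the fit on all 30 libraries. WT library 62 and KO library 73 were then both left out, an alternative chosen after seeing that they were the extremes facing each other. Leaving them out widens the gap by construction. In that setting 9 of 9 were called, S1pr1 was at -3.03 on the log2 scale, and 5668 of all genes were called. The summed CD8 T cell markers were also lower in KO with TGFB1 (2170 to 2940 CPM) than in WT with TGFB1 (2670 to 4290 CPM), with overlapping ranges. The summed B cell markers, nearly all Ighm, ran from 431 to 749 CPM in KO and from 601 to 827 CPM in WT. The summed stromal markers, nearly all Pecam1, ran from 7.55 to 35.7 CPM in KO and from 26.3 to 81.5 CPM in WT, with 4 of the 5 genes averaging below 1 CPM in each group. The part of these lists in the result was not tested.

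Without added cytokine only Il7r passed the test between the genotypes, although the estimate was below 0 for all 9 genes. Of the 9 genes, 1 was lower and 0 higher, against 1.02% lower and 1.08% higher of all genes tested. An unadjusted edgeR p below 0.05 was found for 5 of the 9, against 2193 of all 11718 genes tested. Il7r had 18.1, 14.6, 16.2, 28.9 and 13.7 CPM in KO without cytokine, against 28.9, 34.3, 63.7, 48.9 and 43.9 CPM in WT without cytokine. The highest KO library and the lowest WT library were level, and the rest were apart. The log2 fold change was -1.26 ± 0.30 (SE, edgeR adjusted p 0.027). The call was lost without KO library 68, 70 or 74 or WT library 71, 72 or 75, with adjusted p up to 0.117. The summed B cell markers were lower in KO without cytokine (503 to 581 CPM) than in WT without cytokine (599 to 693 CPM), with no overlap. The CD4 T cell markers summed to 9.81 to 14.5 CPM in KO and 13.4 to 20.2 CPM in WT, and the stromal markers to 42.4 to 59.2 CPM in KO and 50.1 to 78.1 CPM in WT. The part of these lists was not tested.

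Dapl1 without cytokine had 63.1, 58.65, 60.7, 65.4 and 53.3 CPM in KO, against 74.5, 75.6, 102, 80.5 and 75.7 CPM in WT. It was the 1 gene of 9 whose ranges did not overlap in this comparison, against 6.55% of all genes tested. Its log2 fold change of -0.44 ± 0.22 (SE) had an edgeR adjusted p of 0.288. In a fit on these 2 groups alone, 4 of the 9 were called, and adjusted p was 0.0152 for Dapl1, 0.0263 for Satb1 and 0.0491 for Foxo1. Over all genes that fit called 1099, against 246 in the fit on all 30 libraries. S1pr1 had 10.1, 6.37, 4.62, 10.2 and 5.49 CPM in KO, against 8.68, 8.33, 61.1, 9.33 and 13.8 CPM in WT. Its estimate was -1.44 ± 0.70 (log2, SE, edgeR adjusted p 0.266), and -0.43 without WT library 71, the highest of its group. Satb1 was called when KO library 73 was left out (adjusted p 0.0494).

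With IL12, 0 of the 9 genes were called between KO and WT by edgeR's quasi-likelihood test, DESeq2 or limma-voom, where edgeR called 4.01% of all genes lower and 2.76% higher. Il7r alone of the 9 had an unadjusted edgeR p below 0.05, against 2865 of all 11718 genes tested. It had 39.0, 24.8, 32.3, 72.35 and 46.5 CPM in KO with IL12, against 41.3, 47.7, 119.6, 95.6 and 82.4 CPM in WT with IL12, and the ranges overlapped. Its log2 fold change was -0.85 ± 0.28 (SE, edgeR adjusted p 0.0616), and it was called without KO library 73 or WT library 62 or 67. All 9 estimates were again below 0, from -1.09 for S1pr1 to -0.10 for Foxo1. The 3 comparisons of KO with WT use different libraries, but the titles repeat the same numbers across conditions.

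**Figure D3:**
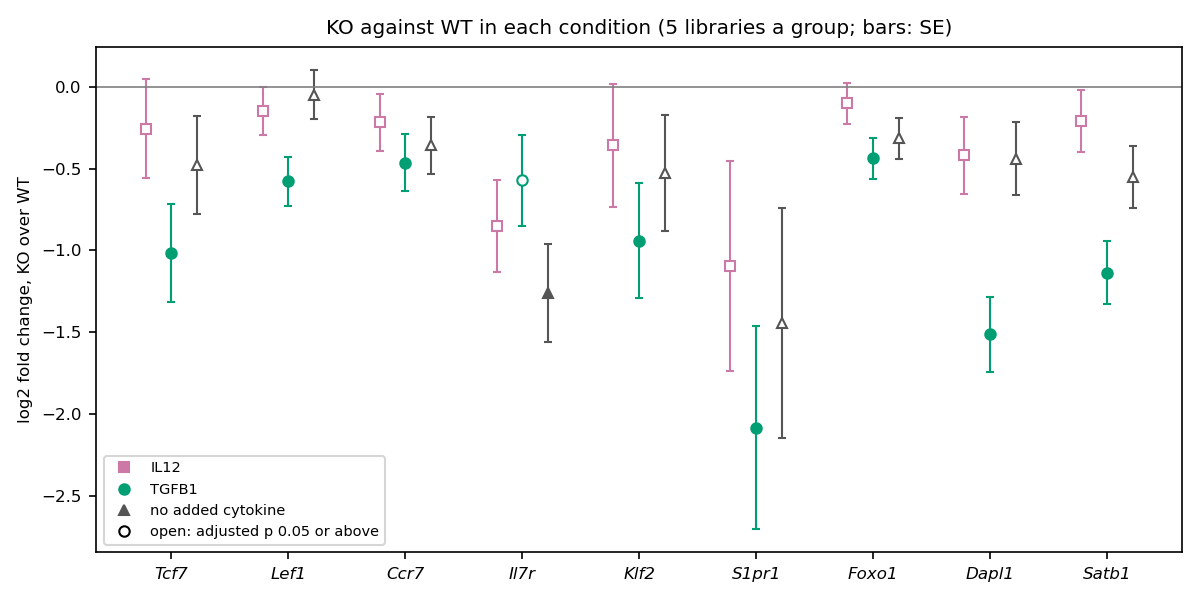
log2 fold change of KO over WT for each gene with IL12, TGFB1 and no added cytokine; points are fitted values, bars are SE, and filled points have an adjusted p below 0.05. All 27 points lie below 0, and 8 of the 9 TGFB1 points are filled.

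With TGFB1 over no cytokine, Tcf7, Ccr7, Il7r, S1pr1 and Foxo1 rose in both genotypes, Tcf7 and S1pr1 in KO only just past the threshold, and Dapl1 and Satb1 fell in KO. In KO, 5 of the 9 rose and 2 fell, against 13.5% higher and 11% lower of all genes tested. In WT, 7 rose and 0 fell, against 19.2% higher and 18.6% lower. The median of the 9 log2 fold changes was 0.66 in KO and 0.81 in WT, against 0.01 in KO and 0.02 in WT over all genes tested. Each cytokine is set against the same libraries without cytokine, and the libraries here are also those of the comparisons of KO with WT. The summed CD8 T cell markers ran from 2170 to 2940 CPM with TGFB1 and 2340 to 2500 CPM without in KO, and from 2670 to 4290 CPM with TGFB1 and 2350 to 2700 CPM without in WT. In KO, 3 other lists did not overlap. CD4 T cell markers summed to 16 to 24.1 CPM with TGFB1 and 9.81 to 14.5 CPM without. NK markers, of which Klrc1 had the highest median, summed to 1.6 to 8.42 CPM with and 8.64 to 17.3 CPM without. Stromal markers summed to 7.55 to 35.7 CPM with and 42.4 to 59.2 CPM without. The part of these lists was not tested.

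Foxo1 had 143, 126, 150, 154 and 153 CPM in KO with TGFB1, against 93.8, 80.6, 86.8, 106.7 and 84.1 CPM in KO without cytokine. In WT it had 154, 211, 217, 184 and 218 CPM with TGFB1, against 103.5, 91.5, 127, 118 and 123 CPM without cytokine. Every library with TGFB1 was above every library without it in both genotypes. The log2 fold change was 0.69 ± 0.12 in KO (SE, edgeR adjusted p 0.00016) and 0.81 ± 0.12 in WT (SE, adjusted p 2.19e-05).

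Il7r, a target of FOXO1, also separated fully in both genotypes. It rose by 1.78 ± 0.30 on the log2 scale in KO (SE, edgeR adjusted p 5.75e-05), to 62.8 ± 22.1 CPM with TGFB1 against 18.3 ± 6.17 CPM without (SD, n = 5 each). In WT it rose by 1.09 ± 0.28 (SE, adjusted p 0.00356), to 93.4 ± 15.6 CPM against 44.0 ± 13.5 CPM (SD). Foxo1 and Il7r were the 2 of 9 genes without overlap in each genotype, against 20.8% of all genes tested in KO and 14.8% in WT.

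Tcf7 rose by 0.81 ± 0.30 in KO (log2, SE, edgeR adjusted p 0.0492), and by 1.34 ± 0.30 in WT (adjusted p 0.00112). Ccr7 rose by 0.66 ± 0.17 in KO (adjusted p 0.00603) and by 0.76 ± 0.17 in WT (adjusted p 0.00123). S1pr1 rose by 1.88 ± 0.69 in KO (adjusted p 0.0464) and by 2.52 ± 0.64 in WT (adjusted p 0.00291), and by 3.54 in WT without WT library 71. In KO the calls of Tcf7 and S1pr1 were near the threshold. That of S1pr1 was lost without library 73 with TGFB1, which moved it to 1.23, without library 63 or 70 with TGFB1, or without library 63, 68, 70, 73 or 74 lacking cytokine. With any 1 of these libraries left out, at most 4 of the 9 genes rose in KO. The call of Tcf7 was lost without library 63, 70 or 73 with TGFB1 or library 63, 68, 70 or 74 lacking cytokine, with adjusted p up to 0.191.

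Klf2 was at 0.47 ± 0.35 in KO (log2, SE, edgeR adjusted p 0.352) and rose by 0.89 ± 0.35 in WT (adjusted p 0.0463). The WT call was lost without library 67, 71 or 75 with TGFB1 or library 62, 67, 72 or 75 lacking cytokine, and was 0.0604 by DESeq2. Lef1 was at -0.06 ± 0.15 in KO (adjusted p 0.798) and rose by 0.46 ± 0.15 in WT (adjusted p 0.0153), a call lost without WT library 71 with TGFB1 (adjusted p 0.0775).

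Dapl1 fell by 0.73 ± 0.23 in KO (log2, SE, edgeR adjusted p 0.0198), to 36.3 ± 17.3 CPM with TGFB1 against 60.2 ± 4.62 CPM without (SD, n = 5 each). In WT it was at 0.34 ± 0.22 (adjusted p 0.232), with 103 ± 23.6 CPM against 81.7 ± 11.7 CPM (SD). Satb1 fell by 0.56 ± 0.19 in KO (adjusted p 0.0326) and was at 0.03 ± 0.19 in WT (adjusted p 0.918). The KO call of Dapl1 was lost without library 68, 70 or 74 with TGFB1 (adjusted p up to 0.0632). That of Satb1 was lost without library 63, 68 or 74 with TGFB1 or library 70 or 73 lacking cytokine (adjusted p up to 0.102).

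The difference between the genotypes in the TGFB1 response was tested directly. By edgeR's quasi-likelihood test 0 of the 9 genes were called, against 3.30% of all genes tested. The unadjusted p was below 0.05 for 3 of the 9, against 2679 of all 11718 genes tested. Dapl1 was nearest, at -1.07 ± 0.32 (log2, KO response minus WT response, SE, adjusted p 0.0552), and DESeq2 (0.0242) and limma-voom (0.0354) each called it as the 1 gene of 9. It was also called with no filter on low counts (0.0348), and when KO library 73 or WT library 62 with TGFB1, or WT library 71 lacking cytokine, was left out (lowest adjusted p 0.00733). In all, 3 of the 20 fits with 1 library left out called it, with adjusted p up to 0.114. Leaving out KO library 73 or WT library 62, the extremes facing each other, widens the gap by construction. Dapl1 was not called with a stricter filter, a term for sex or for numbers above 70, or the compared groups alone. Satb1 was at -0.59 ± 0.27 (edgeR adjusted p 0.19), Lef1 at -0.53 ± 0.21 (0.136) and Il7r at 0.69 ± 0.41 (0.311). Dapl1, Satb1, Lef1 and Klf2, whose responses were called in 1 genotype and not in the other, did not pass this edgeR test of the difference. With the library number as a fixed replicate block, edgeR called Dapl1 (-1.14, adjusted p 0.0162) and Satb1 (-0.60, adjusted p 0.0254). Over all genes that fit called 1073, against 387 without the block.

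With IL12 over no cytokine, Klf2 and Dapl1 fell in both genotypes and Il7r rose in both. In KO, 2 of the 9 rose and 2 fell, against 8.49% higher and 5.74% lower of all genes tested. In WT, 2 rose and 3 fell, against 10.5% higher and 8.30% lower. The median of the 9 was 0.13 in KO and -0.08 in WT (log2), against 0 in KO and 0.01 in WT over all genes tested. The summed CD8 T cell markers ran from 1690 to 2260 CPM with IL12 and 2340 to 2500 CPM without in KO, and from 2000 to 2510 CPM with IL12 and 2350 to 2700 CPM without in WT. The NK markers, of which Klrc1 had the highest median, summed to 17.5 to 23.9 CPM with IL12 and 8.64 to 17.3 CPM without in KO. In WT they summed to 12.4 to 21 CPM with IL12 and 4.20 to 9.56 CPM without. The B cell markers summed to 189 to 424 CPM with IL12 and 503 to 581 CPM without in KO, and to 260 to 506 CPM with IL12 and 599 to 693 CPM without in WT. The stromal markers summed to 8.73 to 34 CPM with IL12 and 42.4 to 59.2 CPM without in KO, and to 13.9 to 39.8 CPM with IL12 and 50.1 to 78.1 CPM without in WT. The part of these lists was not tested.

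Klf2 had 32.2, 21.6, 27.95, 37.6 and 6.92 CPM in KO with IL12, against 75.9, 58.4, 54.1, 96.3 and 58.1 CPM in KO without cytokine. In WT it had 40.3, 42.0, 42.8, 19.05 and 16.8 CPM with IL12, against 75.3, 81.2, 154, 88.2 and 95.35 CPM without cytokine. No library with IL12 reached any library without it in either genotype. The share of all genes tested that separated in this way was not computed for IL12 over no cytokine. That holds for the other genes below too. Klf2 fell by 1.45 ± 0.37 in KO (log2, SE, edgeR adjusted p 0.00784) and by 1.62 ± 0.37 in WT (adjusted p 0.00271).

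Dapl1 had 34.2, 28.8, 36.5, 24.3 and 14.4 CPM in KO with IL12 and 42.4, 38.9, 38.0, 39.7 and 25.6 CPM in WT with IL12, all below the libraries of the same genotype without cytokine given above. It fell by 1.13 ± 0.23 in KO (log2, SE, edgeR adjusted p 0.00131) and by 1.15 ± 0.23 in WT (adjusted p 0.000826).

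Il7r rose by 1.23 ± 0.30 in KO (log2, SE, edgeR adjusted p 0.00536) and by 0.82 ± 0.28 in WT (adjusted p 0.0412). The WT call was lost without library 71, 72 or 75 with IL12 or library 62, 67, 72 or 75 lacking cytokine (adjusted p up to 0.139). Satb1 rose by 0.85 ± 0.19 in KO (adjusted p 0.00274), to 250 ± 51.5 CPM against 139 ± 25.2 CPM (SD, n = 5 each), with no overlap. In WT it was at 0.51 ± 0.19 (adjusted p 0.0568). It was called there by DESeq2 (0.0399), with a term for sex (0.0442) or for numbers above 70 (0.0182), and in the 2 groups alone (0.0299). It was also called by edgeR with the library number as a fixed replicate block (0.00206). Leaving out library 62 or 67 with IL12 or library 75 lacking cytokine gave a call as well (lowest adjusted p 0.031). Tcf7 was at -0.70 ± 0.30 in KO (adjusted p 0.121) and fell by 0.92 ± 0.30 in WT (adjusted p 0.0312), and its libraries with IL12 were below those without in both genotypes. The WT call was lost without library 72 or 75 with IL12 or library 71 lacking cytokine (adjusted p up to 0.107). Lef1 was at 0.35 ± 0.15 in KO (adjusted p 0.111) and rose by 0.46 ± 0.15 in WT (adjusted p 0.0316). The WT call of Lef1 was lost without library 71, 72 or 75 with IL12 or library 62 or 72 lacking cytokine (adjusted p up to 0.0853). In KO, Tcf7 and Lef1 were called by edgeR with that block (adjusted p 0.048 and 0.0384) and in the 2 groups alone (0.0118 and 0.0246).

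Ccr7, S1pr1 and Foxo1 did not pass the test with IL12 in either genotype. S1pr1 was split within the groups. It had 9.48, 7.07, 7.07, 20.2 and 26.4 CPM in KO libraries 63, 68, 70, 73 and 74 with IL12, and 9.56, 10.8, 49.9, 43.5 and 35.3 CPM in WT libraries 62, 67, 71, 72 and 75 with IL12. The libraries numbered above 70 were the higher ones in each genotype, and the labels do not say what the numbers stand for. In the test of the difference between the genotypes in the IL12 response, 0 of the 9 genes were called by edgeR, DESeq2 or limma-voom. By edgeR 0% of all genes tested were called, and 0 of the 9 had an unadjusted p below 0.05, against 513 of all 11718 genes.

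**Figure D4:**
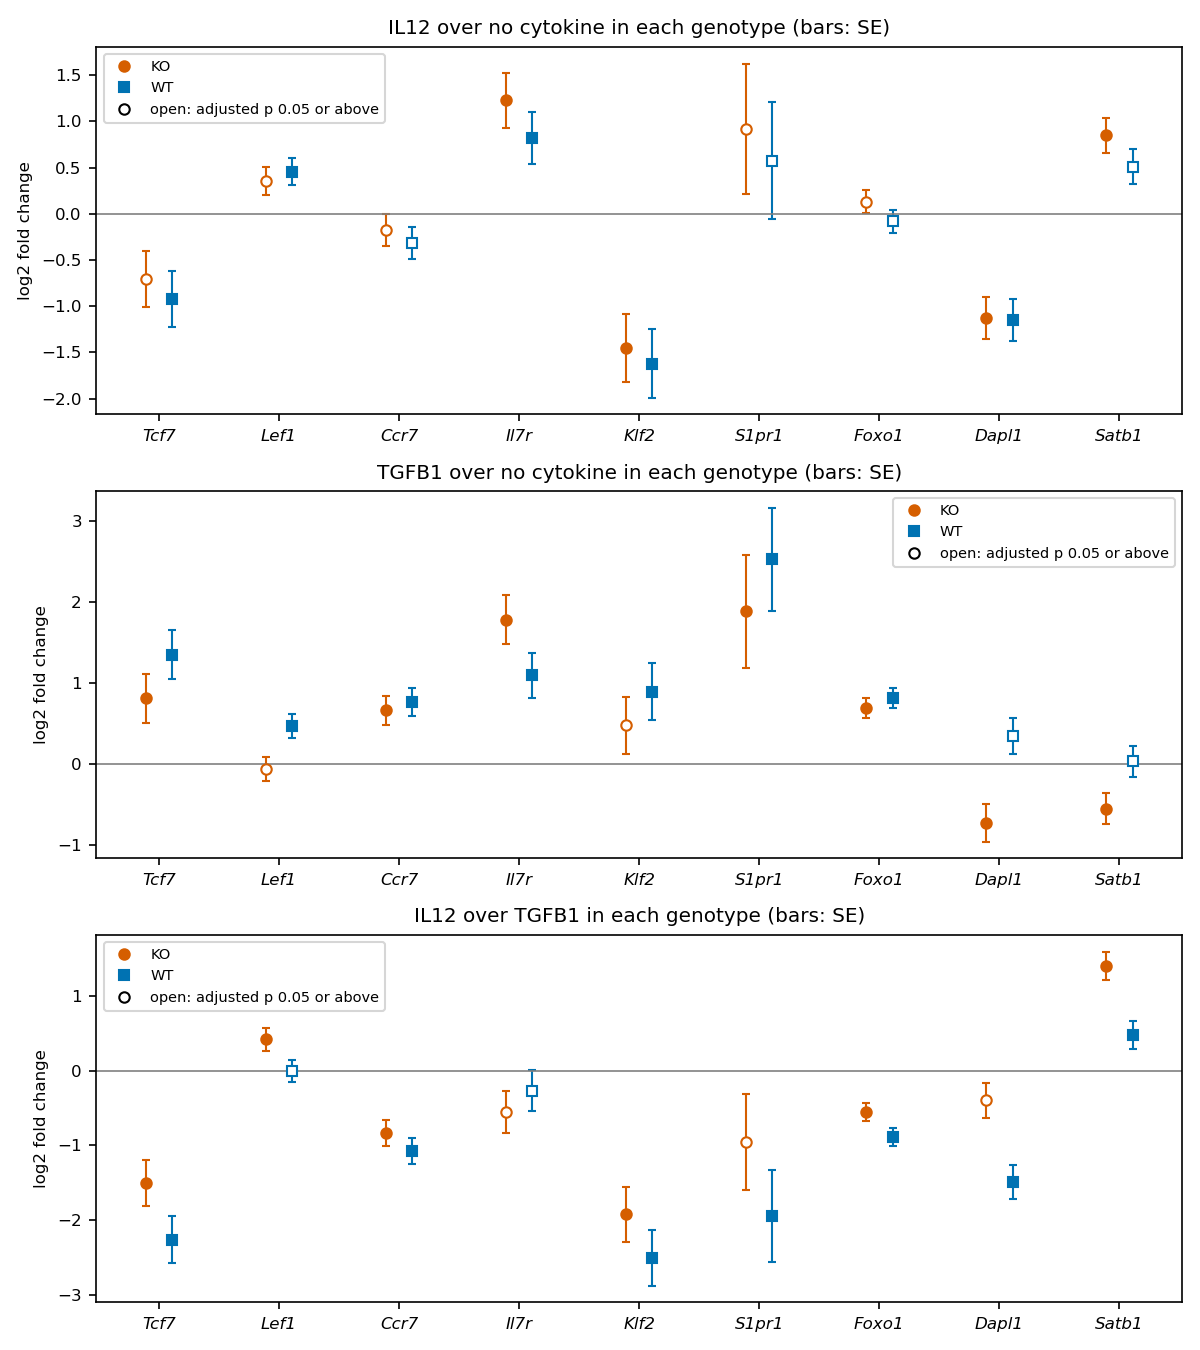
log2 fold change of each gene for IL12 over no cytokine (top), TGFB1 over no cytokine (middle) and IL12 over TGFB1 (bottom), KO in orange circles and WT in blue squares. Bars are SE and filled points have an adjusted p below 0.05; Klf2 and Dapl1 are below 0 with IL12 in both genotypes, and Foxo1 and Il7r are above 0 with TGFB1 in both.

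Set against each other, IL12 and TGFB1 left Tcf7, Klf2, Ccr7 and Foxo1 lower with IL12 in both genotypes, and Satb1 higher with IL12 in both. In KO, 2 of the 9 were higher and 4 lower with IL12, against 14.9% higher and 15.9% lower of all genes tested. In WT, 1 was higher and 6 lower, against 26.6% higher and 25.9% lower. The summed CD8 T cell markers ran from 1690 to 2260 CPM with IL12 and 2170 to 2940 CPM with TGFB1 in KO. In WT they ran from 2000 to 2510 CPM with IL12 and 2670 to 4290 CPM with TGFB1, with no overlap. B cell markers were lower and NK markers higher with IL12, with no overlap in either genotype. In KO, CD4 T cell markers were lower and dendritic markers higher, with no overlap. The part of these lists was not tested. Klf2 was at -1.93 ± 0.37 in KO (log2, SE, edgeR adjusted p 0.000212) and -2.51 ± 0.38 in WT (adjusted p 5.14e-06). Tcf7 was at -1.51 ± 0.31 in KO (adjusted p 0.000364) and -2.27 ± 0.31 in WT (adjusted p 1.61e-06). For these 2 genes the ranges with IL12 and with TGFB1 did not overlap in either genotype. The same held for Ccr7, Foxo1 and Dapl1 in WT and for Satb1 in KO. The share of all genes tested without overlap was not computed for this comparison.

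Satb1 was 1.40 ± 0.19 higher in KO (log2, SE, edgeR adjusted p 1.89e-06), with 250 ± 51.5 CPM with IL12 and 94.3 ± 29.6 CPM with TGFB1 (SD, n = 5 each). In WT it was 0.48 ± 0.19 higher (adjusted p 0.033), a call lost without library 71, 72 or 75 with IL12 or library 62 or 72 with TGFB1 (adjusted p up to 0.104). Dapl1 was at -0.40 ± 0.23 in KO (adjusted p 0.206) and fell by 1.49 ± 0.23 in WT (adjusted p 7.91e-06). Lef1 was 0.42 ± 0.15 higher in KO (adjusted p 0.0323), a call lost without library 63, 73 or 74 with IL12 or library 68, 70 or 74 with TGFB1 (adjusted p up to 0.118). In WT Lef1 was at -0.01 ± 0.15 (adjusted p 0.965).

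Other genes of the same programme were counted from lists of known members. Of 18 further naive and central memory genes, 10 were lower and 0 higher in KO than in WT with TGFB1, with a median of -0.64 (log2). For this and the lists that follow, the shares of all genes tested in that comparison are 17.3% lower and 18.3% higher, and counts such as 3 of 9 are to be read against them. Ramp1, which encodes a subunit of a neuropeptide receptor, was at -2.09 ± 0.35 (SE, edgeR adjusted p 0.000216). Id3, an inhibitor of E proteins, was at -1.66 ± 0.26 (adjusted p 0.000119). With TGFB1 over no cytokine, 6 of these 18 rose and 2 fell in KO, against 13.5% higher and 11% lower of all genes tested. In WT 11 rose and 2 fell, against 19.2% higher and 18.6% lower. Il6ra, the receptor for IL6, averaged 50.02 CPM with TGFB1 and 11.04 CPM without in KO, and 48.4 CPM with TGFB1 and 8.60 CPM without in WT. It rose by 2.18 ± 0.26 in KO (log2, SE, edgeR adjusted p 2.54e-07) and by 2.50 ± 0.26 in WT (adjusted p 6.8e-08). Id3 fell by 2.16 ± 0.26 in KO (adjusted p 4.14e-07), and its response differed between the genotypes by -1.86 ± 0.36 (adjusted p 0.0126), the 1 gene of these 18 called in that test.

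Of 12 other targets of FOXO1, a list that shares a gene with the one above, 9 were lower and 1 higher in KO than in WT with TGFB1. Bcl6, a repressor tied to memory, was at -2.42 ± 0.39 (log2, SE, edgeR adjusted p 0.000154). With TGFB1 over no cytokine, 9 of the 12 rose and 2 fell in WT, against 19.2% higher and 18.6% lower of all genes tested. In KO 4 rose and 1 fell, against 13.5% higher and 11% lower. The PI3K and AKT arm, which holds FOXO1 out of the nucleus, had 4 of 9 lower and 0 higher in KO than in WT with TGFB1, Foxo1, itself on that list, among them.

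Among 10 tested relatives and cofactors of TCF1 and LEF1, 6 were lower and 1 higher in KO than in WT with TGFB1. Axin2, a common target of TCF factors, was at -1.11 ± 0.34 (log2, SE, edgeR adjusted p 0.013), and Jup, which encodes plakoglobin, at -1.38 ± 0.43 (adjusted p 0.0136). Of 9 relatives of Foxo1, Klf2 and Satb1, 3 were lower and 0 higher, with Klf3 at -1.24 ± 0.30 (adjusted p 0.00285). In IL7 receptor signalling 5 of 11 were lower and 1 higher, with Gfi1 at -1.41 ± 0.24 (adjusted p 0.000223). In the CCR7 and S1P egress axis 3 of 9 were lower and 0 higher. Gpr183, a receptor that positions lymphocytes, was at -2.08 ± 0.33 (adjusted p 0.000119) and its TGFB1 response differed by -2.49 ± 0.44 between the genotypes (adjusted p 0.0114).

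Effector genes moved with IL12. Of 12 tested, 9 rose and 0 fell with IL12 over no cytokine in KO, and 11 rose and 0 fell in WT, against 8.49% higher in KO and 10.5% higher in WT of all genes tested, with a median of 1.499 in KO and 1.70 in WT (log2). Ifng rose by 5.43 ± 0.51 in KO (SE, edgeR adjusted p 3.4e-08) and by 6.38 ± 0.53 in WT (adjusted p 5.45e-09). With TGFB1, 2 of the 12 were higher and 4 lower in KO than in WT, against 18.3% higher and 17.3% lower of all genes tested, with Gzmb at -2.02 ± 0.48 (adjusted p 0.00238) and Il2ra at 1.30 ± 0.25 (adjusted p 0.000474).

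The genes whose pattern over the 30 libraries was most like each of the 9 were found by the root mean square difference of centred log2 CPM, over 9885 candidates. For Tcf7 these included Sbk1 (0.31), against a spread of 0.95 for Tcf7 itself. For Foxo1 they were Heca (0.17) and Fbxl20 (0.18), for Ccr7 Psap (0.17) and Zfyve1 (0.17), and for Lef1 Pld3 (0.15) and Emb (0.16). Klf2 was nearest to Ifi203 (0.36) and the integrin gene Itgb7 (0.39), and Dapl1 to Lsp1 (0.30) and Mndal (0.31). Ifi203 and Mndal belong to a family of closely similar genes, so their counts are uncertain. Satb1 was nearest to Fam107b (0.27) and Slc25a24 (0.28), and Il7r to Mxd1 (0.33) and Hist3h2ba (0.38). S1pr1 had the largest differences, 0.70 to Grb7 and 0.77 to Mxd4, and also the widest spread of the 9, 1.53. The spread of Lef1 was 0.32. The difference grows with a gene's own spread, so these values do not rank the 9 by closeness of match. Among the 9 themselves the closest pair was Ccr7 and Foxo1 (0.25), followed by Tcf7 and Klf2 (0.40).

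By the GENCODE vM21 annotation of GRCm38, Tcf7 and Ccr7 lie on chromosome 11, Lef1, S1pr1 and Foxo1 on chromosome 3, and the others on chromosomes 15 (Il7r), 8 (Klf2), 2 (Dapl1) and 17 (Satb1). Exons of Lef1 and Foxo1 overlap antisense genes by 1208 and 674 bases, and those of Satb1 overlap 2 other annotated genes by 128 bases (opposite strand) and 156 bases (same strand). The library kit keeps strand, but no source used here gives the strand setting of the counting, so reads of these partners cannot be told apart from those of Lef1, Foxo1 and Satb1.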

How the data were processed

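Poly(A) RNA was sequenced with a directional kit, per the labels' protocols. The deposited table holds raw read counts per Ensembl gene for 30 libraries, and the submitters' processing notes name FastQC, Trim Galore, STAR, DESeq2 1.24.0 and the GRCm38 build. The counting tool is not given in the sources used here. Symbols came from GENCODE vM21 (55480 of 55573 genes). The tests ran in edgeR 4.0.16 (R 4.3.3): filterByExpr with a minimum count of 10 (11718 genes, 99.88% of counts), TMM factors, 1 mean per group over all 30 libraries (so 1 shared estimate of spread), and quasi-likelihood tests of 11 contrasts, two-sided, with Benjamini-Hochberg adjustment over all tested genes. A gene is called at an adjusted p below 0.05. SE is the log2 fold change divided by the root of F. CPM, computed from the deposited counts, used the TMM factors, and log2 CPM a prior count of 1. The biological coefficient of variation was 14.3%. No 2 libraries of a group were alike enough to be copies (lowest chi-square per degree of freedom 2.34). The test was tried on simulated data. Alternatives were DESeq2 1.42.0, limma-voom (limma 3.58.1), other size factors and filters, terms for sex and for library numbers above 70, females only, a replicate block, the compared groups alone and each library left out.

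The 9 genes and the lists were chosen with earlier results of these data known. The genes named are the 9, the 2 nearest genes of each, and from each list up to 4 called genes per comparison, by size of change, whose higher group mean was 4 CPM or more. Some genes that this rule names are not reported here.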

Additional observations from a re-analysis of the deposited data

Results flagged for a closer look

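In 54 sets of 5 libraries (9 genes in 6 groups), 5 had 1 library far from the others, where chance gives about 1 in 20. In WT without cytokine, library 71 was the highest for Tcf7 (508 CPM, next 348), Klf2 (154 CPM, next 95.35), S1pr1 (61.1 CPM, next 13.8) and Dapl1 (102 CPM, next 80.5). In WT with IL12, library 75 was the lowest for Dapl1 (25.6 CPM, next 38.0). The part of these libraries in the results was not tested beyond the values given without them.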

How the results depend on the processing

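Of 2214 values of the 9 genes under alternatives, 2187 kept their direction and 2052 both direction and side of the threshold. All 45 called values kept their direction under the alternatives run. In the test of the difference in the TGFB1 response, where 0 genes were called, 1 was called with no filter, DESeq2, limma-voom or females only, 2 with the replicate block and 4 without WT library 62 and KO library 73 with TGFB1. KO against WT with IL12 had 1 call with a replicate block (limma-voom with a correlation of libraries of 1 number), females only or a term for numbers above 70. With the compared groups alone, 4 genes were called without cytokine and 5 with TGFB1. The cause was not tested. With 1 library left out, KO against WT had 0 to 2 calls without cytokine and 0 to 1 with IL12. With TGFB1 it had 6 to 9. Calls ran from 5 to 7 for TGFB1 in WT, 4 to 5 for TGFB1 in KO and 2 to 6 for IL12 in WT. For the difference in the TGFB1 response they ran from 0 to 2. Over all genes tested, calls ran from 2799 to 5386 for KO against WT with TGFB1 and 3523 to 5373 for TGFB1 in WT. They ran from 2306 to 2902 for TGFB1 in KO and 1324 to 2727 for IL12 in WT. The other ranges over all genes are given below.

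Values near 0 changed sign. Lef1 between IL12 and TGFB1 in WT was 0.016 by limma-voom, 0.011 with the replicate block and -0.127 to 0.103 with 1 library left out. Lef1 between KO and WT without cytokine was 0.001 with the term for numbers above 70 and -0.099 to 0.011 with 1 left out. In the difference in the IL12 response, Dapl1 was -0.042 by limma-voom, -0.018 with the replicate block and -0.103 to 0.184 with 1 left out, S1pr1 was -0.075 by limma-voom and -0.666 to 0.605, and Klf2 ran from -0.05 to 0.415. With 1 left out, Satb1 with TGFB1 in WT ran from -0.072 to 0.152, Foxo1 with IL12 in WT from -0.149 to 0.014, and Ccr7 in the difference in the TGFB1 response from -0.261 to 0.009.

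Whether the replicate numbers pair the libraries was checked on deviations from the group means. Over 30 same-numbered pairs r ran from -0.034 to 0.43 (median 0.222), 5 pairs were at or below 0.1, and 26 of 30 libraries correlated best with their own number, a hint from the data only. With the number as a fixed replicate block within genotype, the genes called in the difference in the TGFB1 response were Dapl1 (-1.14, adjusted p 0.0162) and Satb1 (-0.60, adjusted p 0.0254). Over all genes, calls without cytokine numbered 246, against 460 by DESeq2, 1099 with the compared groups alone and 7 to 564 with 1 library left out. With IL12 they numbered 794, against 504 with no filter, 45 with the compared groups alone and 174 to 1530 with 1 left out, and with TGFB1 4166, against 2307 with the compared groups alone. In the difference in the TGFB1 response they numbered 387, against 774 by DESeq2, 1073 with the block, 1250 in females, 2803 without WT library 62 and KO library 73, and 58 to 2155 with 1 left out. S1pr1 and Klf2 had the smallest counts in any library among the genes described here, 35 and 84. The part of sequencing depth in their spread was not tested.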
